A study of Rattus norvegicus with 8 samples.

Results

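The genes described here are 9 components of coagulation and fibrinolysis that endothelial cells can carry or make: Thbd, Procr, Tfpi, F3, F8, F2r, Plat, Plau and Plaur. They were found by matching the RefSeq accession of each non-control array probe to a gene symbol, which gave 13 probes for the 9 genes, of 19137 genes tested in all. They were measured in CD31-selected lung cells of Sprague-Dawley rats, which were 8 to 10 weeks of age. The rats had been given a subcutaneous injection of monocrotaline (60 mg/kg, 4 rats) or of saline (4 rats) 5 days earlier. Monocrotaline is a plant alkaloid whose liver-made pyrrole injures the lung vessels, and it serves widely as a rat model of pulmonary arterial hypertension. The cells were taken from collagenase-digested whole lung on antibody-coated magnetic beads and lysed without culture. CD31 is also carried by platelets and some leukocytes. Each rat gave 1 array.

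Resting endothelium keeps blood fluid in several ways. Thrombomodulin (Thbd) turns thrombin from a clotting enzyme into an activator of protein C, the endothelial protein C receptor (Procr) presents protein C to that complex, and tissue factor pathway inhibitor (Tfpi) blocks the tissue factor (F3) complex that starts clotting. Tissue-type plasminogen activator (Plat) and urokinase (Plau), which acts on its cell-surface receptor (Plaur), make plasmin, the enzyme that dissolves fibrin. F8 is the cofactor that speeds the activation of factor X and is made by endothelial cells, and F2r is the receptor through which thrombin signals to cells. In-place clots in small lung arteries are a known feature of pulmonary arterial hypertension, and loss of the endothelial anticoagulant surface has long been discussed in it.

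Between 70.8% and 77.7% of the non-control spots on each array carried the scanner's flag for a signal well above background, and with 4 arrays in a group the intervals below are wide. All 8 arrays lay on 1 slide, monocrotaline samples in row 2 and saline samples in row 1, so row and group cannot be told apart. Of 11 endothelial markers tested 11 had a negative log2 fold change (median -0.62), 6 at an unadjusted p under 0.05 and 0 after adjustment. Of all genes tested 53.9% had a negative log2 fold change, and 7.23% were lower at an unadjusted p under 0.05. Kdr, a VEGF receptor, averaged 6.39 ± 0.48 in monocrotaline samples and 6.55 ± 0.22 in saline samples (SD, n = 4 each). Pecam1, which is CD31 itself, averaged 5.08 ± 0.27 in monocrotaline samples and 5.39 ± 0.28 in saline samples, and Cldn5, a tight junction protein, 4.73 ± 0.38 in monocrotaline samples and 5.54 ± 0.24 in saline samples. The 11 markers were well above background on all 8 arrays, but so were most of the epithelial, stromal and leukocyte markers tested, so this does not tell how pure the cells were. All 8 T cell markers had a positive log2 fold change, with a median of 1.72. The groups did not overlap in 8 of 8, beside 8.55% of all genes tested, and limma called 3 of them higher in the monocrotaline samples, beside 1.37% of all genes. The T cell score, a mean log2 signal of the 8 less its saline mean, ranged from 1.20 to 2.08 in monocrotaline samples and from -0.91 to 0.39 in saline samples, and its part in the results below was not tested. Here and below a signal is a log2 value scaled so that the 75th percentile of the array is 0, and the levels of different probes cannot be set against each other.

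No gene among the 9 passed the test. After Benjamini-Hochberg adjustment over all genes limma called 0 of the 9 at an adjusted p under 0.05, while it called 1.43% of all genes tested (1.37% higher and 0.0627% lower in the monocrotaline samples). With every probe as its own row it called 0 of the 12 probes tested, beside 1.42% of all probes. The smallest adjusted p among the 9 was 0.284. At an unadjusted p under 0.05 there were 2 of 9, Tfpi and F8, both lower in the monocrotaline samples, where 13.9% of all genes had such a p and 7.23% had it with a lower value. This count was not stable over the alternative ways of processing given below, where it ran from 0 to 3. It was 0 without monocrotaline replicate 1, 3 or 4 or without saline replicate 4. With endothelial marker scaling and with a replicate block it was 1, which was F3. In 0 of the 9 did the arrays of one group lie wholly to one side of the other, as they did in 8.55% of all genes tested. Of the 9 genes 6 had a negative log2 fold change, as did 53.9% of all genes tested, and the median was -0.09, beside -0.03 for all genes. All 9 genes passed the filter on low signal, each with a probe well above background on all 8 arrays.

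**Figure D1:**
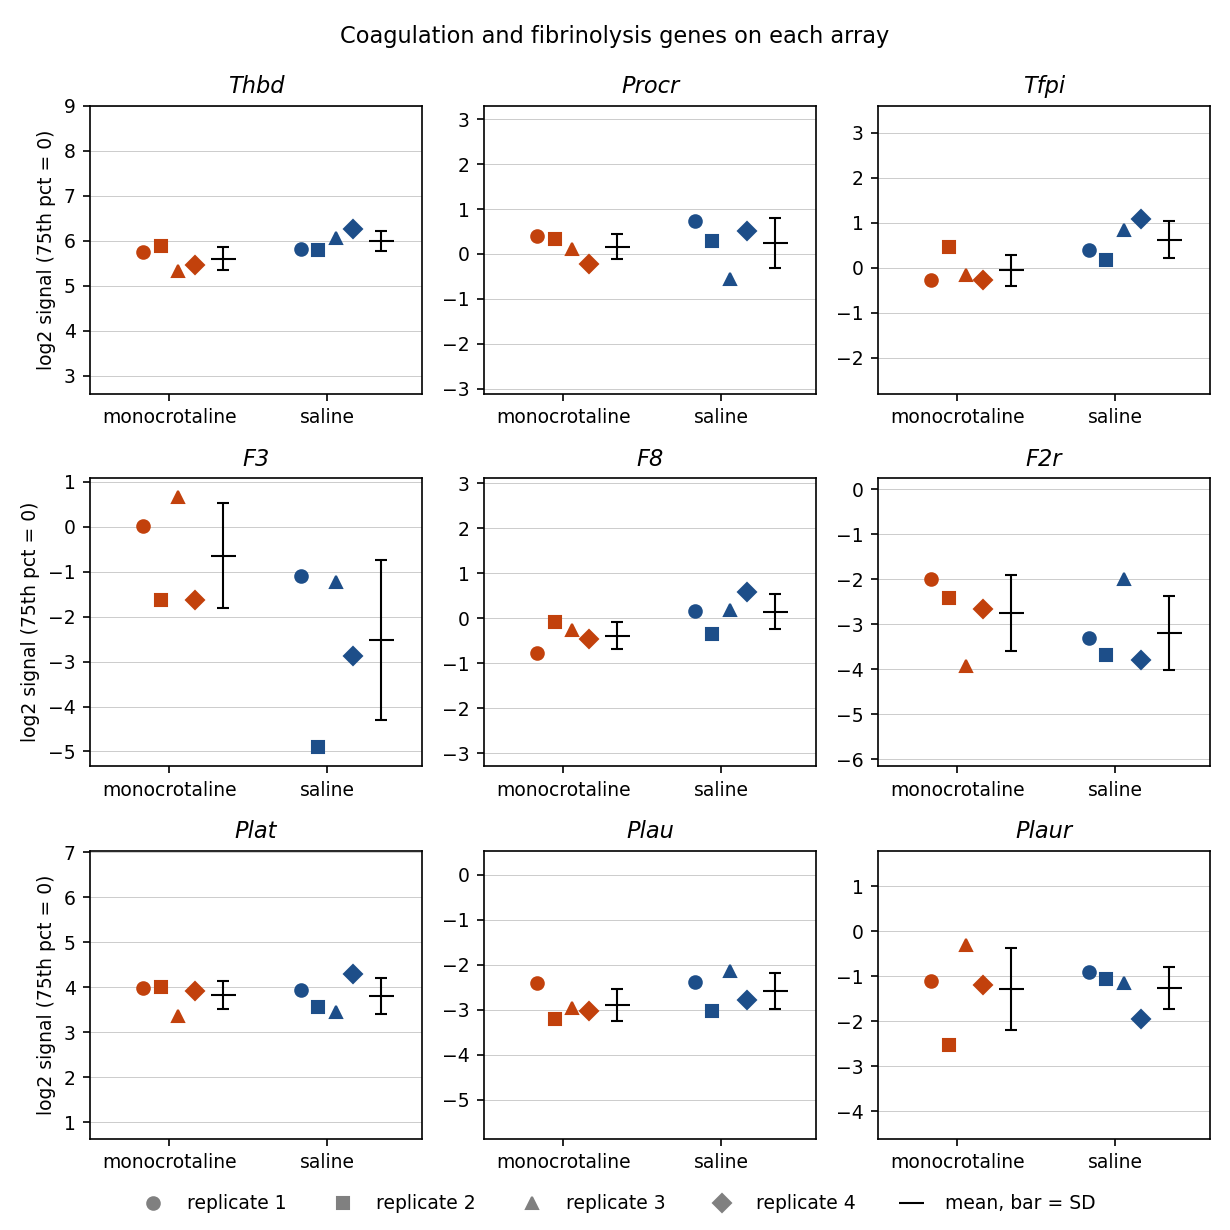
Scaled log2 signal of each gene on each array, 1 panel per gene, with the 4 monocrotaline arrays left of the 4 saline arrays, replicate number by symbol, and a mean with an SD bar. Every panel spans the same number of log2 units, so the wide spread of F3 (SD of 1.17 in monocrotaline and 1.78 in saline samples) can be set against the narrow spread of Thbd (SD of 0.25 in monocrotaline and 0.22 in saline samples).

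Among the anticoagulants, Thbd and Tfpi had lower means in the monocrotaline samples, by amounts that did not pass the test, and Procr did not differ beyond its spread. Thbd had signals of 5.75, 5.87, 5.34 and 5.45 on monocrotaline arrays 1 to 4, against 5.81, 5.80, 6.06 and 6.26 on saline arrays 1 to 4. Only monocrotaline array 2 reached above the lowest saline arrays. Its log2 fold change was -0.38 ± 0.17 (SE, n = 4 per group, limma adjusted p = 0.369), with a 95% interval of -0.77 to 0.01. Thbd is read by a second, dimmer probe, whose log2 fold change was -0.34 ± 0.29, so the direction is shared by the probes and the dimmer one was noisier.

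Tfpi had the lowest unadjusted p of the 9. Its signals were -0.27, 0.46, -0.15 and -0.26 on monocrotaline arrays 1 to 4, against 0.39, 0.18, 0.85 and 1.07 on saline arrays 1 to 4. The groups overlapped through monocrotaline array 2, which lay above saline arrays 1 and 2. For Tfpi the log2 fold change was -0.68 ± 0.25 (SE, n = 4 per group, limma adjusted p = 0.284), which is 0.624-fold, with a 95% interval of -1.24 to -0.11. The 2 probes of Tfpi match different RefSeq transcripts, and the one for the transcript not used in the gene-level test gave -0.38 ± 0.22 (limma adjusted p over all probes = 0.468). That probe was lowest on monocrotaline array 4 (-1.57) and highest on saline array 3 (-0.41), and monocrotaline array 2 (-0.76) again lay within the saline range.

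Procr, read by 1 probe, had signals of 0.41, 0.33, 0.11 and -0.21 on monocrotaline arrays 1 to 4, against 0.74, 0.28, -0.55 and 0.50 on saline arrays 1 to 4. The saline arrays spanned the whole range of the monocrotaline arrays. For Procr the log2 fold change was -0.09 ± 0.28 with a 95% interval of -0.73 to 0.56, so a change of up to about 0.7 log2 units in the lower direction could not be told from none.

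F8, the factor VIII gene, had signals of -0.77, -0.07, -0.26 and -0.45 on monocrotaline arrays 1 to 4, against 0.15, -0.36, 0.19 and 0.59 on saline arrays 1 to 4. Saline array 2 lay inside the monocrotaline range and the other saline arrays above it. Its log2 fold change was -0.53 ± 0.23 (SE, n = 4 per group, limma adjusted p = 0.349), with a 95% interval of -1.05 to -0.01. F8 rests on a single spot per array.

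The signals of Thbd, Tfpi and F8 ran in the same order over the saline arrays as the endothelial marker score, which is the mean log2 signal of the 11 markers less its saline mean. In all 4 measures saline array 4 was highest, then arrays 3, 1 and 2, and among the monocrotaline arrays array 2 was highest. The order of the other monocrotaline arrays differed: array 1 was second in the score and in Thbd but lowest in Tfpi and F8. The score was -0.41, -0.11, -0.82 and -0.87 on monocrotaline arrays 1 to 4, against -0.13, -0.29, 0.06 and 0.36 on saline arrays 1 to 4. Its mean was -0.55 ± 0.36 in monocrotaline samples and 0 ± 0.28 in saline samples (SD, n = 4 each). In RNA of a cell mixture, fewer cells of a type and less RNA per cell cannot be told apart.

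When each array was scaled to the mean of these endothelial markers instead of its 75th percentile, the log2 fold change of Tfpi was -0.13 ± 0.23, that of F8 0.023 ± 0.26 and that of Thbd 0.17 ± 0.21 (SE). On that scale the median of all genes lay at 0.53, against -0.03 on the percentile scale. The change of scale moves the log2 fold change of every gene by the same amount. It therefore cannot alter where a gene lies beside the markers or the all-gene median. These 3 genes lay near the endothelial markers and below the all-gene median. Plat had 0.57 ± 0.26 and Procr 0.47 ± 0.33 on the endothelial scale, near the all-gene median. Plau had 0.23 ± 0.33 there, between the markers and that median, and so was not set apart from Thbd. None of the 9 passed the test on that scale either, the smallest adjusted p being 0.158 for F3.

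**Figure D2:**
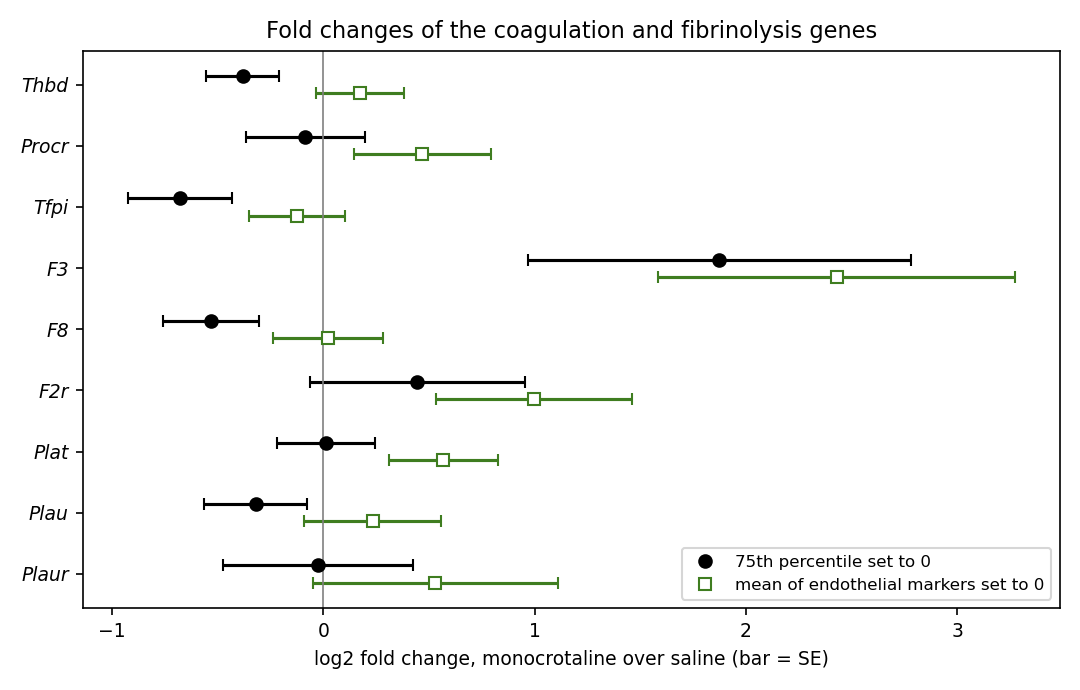
Log2 fold change of each gene, monocrotaline over saline, with SE bars, when the 75th percentile of each array is set to 0 (filled circles) and when the mean of the endothelial markers is set to 0 (open squares). Every open square lies to the right of its circle by the same distance, by construction, and for Thbd, Procr, F8, Plau and Plaur the sign turns.

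F3, the tissue factor gene, had the widest difference in means of the 9 and also the widest spread. Its signals were 0.02, -1.64, 0.65 and -1.63 on monocrotaline arrays 1 to 4, against -1.09, -4.90, -1.22 and -2.88 on saline arrays 1 to 4. Monocrotaline arrays 1 and 3 were the highest of the 8, arrays 2 and 4 lay below saline arrays 1 and 3, and saline array 2 was far below the rest. Saline array 2 was also the dimmest array before scaling, with a 75th percentile of log2 signal of 10.03, against 10.64 to 11.1 on the others. It had the lowest share of spots well above background (70.8%), and the part of this in its F3 value was not tested. For F3 the log2 fold change was 1.88 ± 0.91 (SE, n = 4 per group, limma adjusted p = 0.399), with a 95% interval of -0.20 to 3.95. Without saline replicate 2 it was 1.08, and with monocrotaline replicates 1 and 3 set aside, an alternative chosen after seeing the data, it was 0.89, neither of which passed.

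Tissue factor is best known from epithelial, stromal and adventitial cells, and is low in resting endothelium. The airway epithelium markers (4 tested of 6 listed, without Muc5b and Dnah9, which had no matched probe) had scores of 2.60, 0.42, 2.56 and 0.70 on monocrotaline arrays 1 to 4, against 0.90, -1.25, 0.40 and -0.04 on saline arrays 1 to 4. The arrays with the highest score were those with the highest F3, and saline array 2 was lowest in both. Of the 4 markers 3 had a positive log2 fold change and 1, Tppp3, went the other way (-0.54). Tppp3 was at 4.70 on monocrotaline array 3, where F3 was highest, and at 5.48 on saline array 2, where F3 was lowest. The fibroblast score, over 6 of 6 markers, ranged from 0.43 to 1.65 in monocrotaline samples and from -2.09 to 1.67 in saline samples. The alveolar epithelium score, over 7 of 7, ranged from -2.36 to 1.98 in saline samples. Saline array 2 was lowest in each score. Among the monocrotaline arrays the alveolar score did not follow F3. It was lowest, at 0.29, on array 1, where F3 was 0.02, and highest on array 2, where F3 was -1.64. The part of these cells in the F3 difference was not tested.

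**Figure D3:**
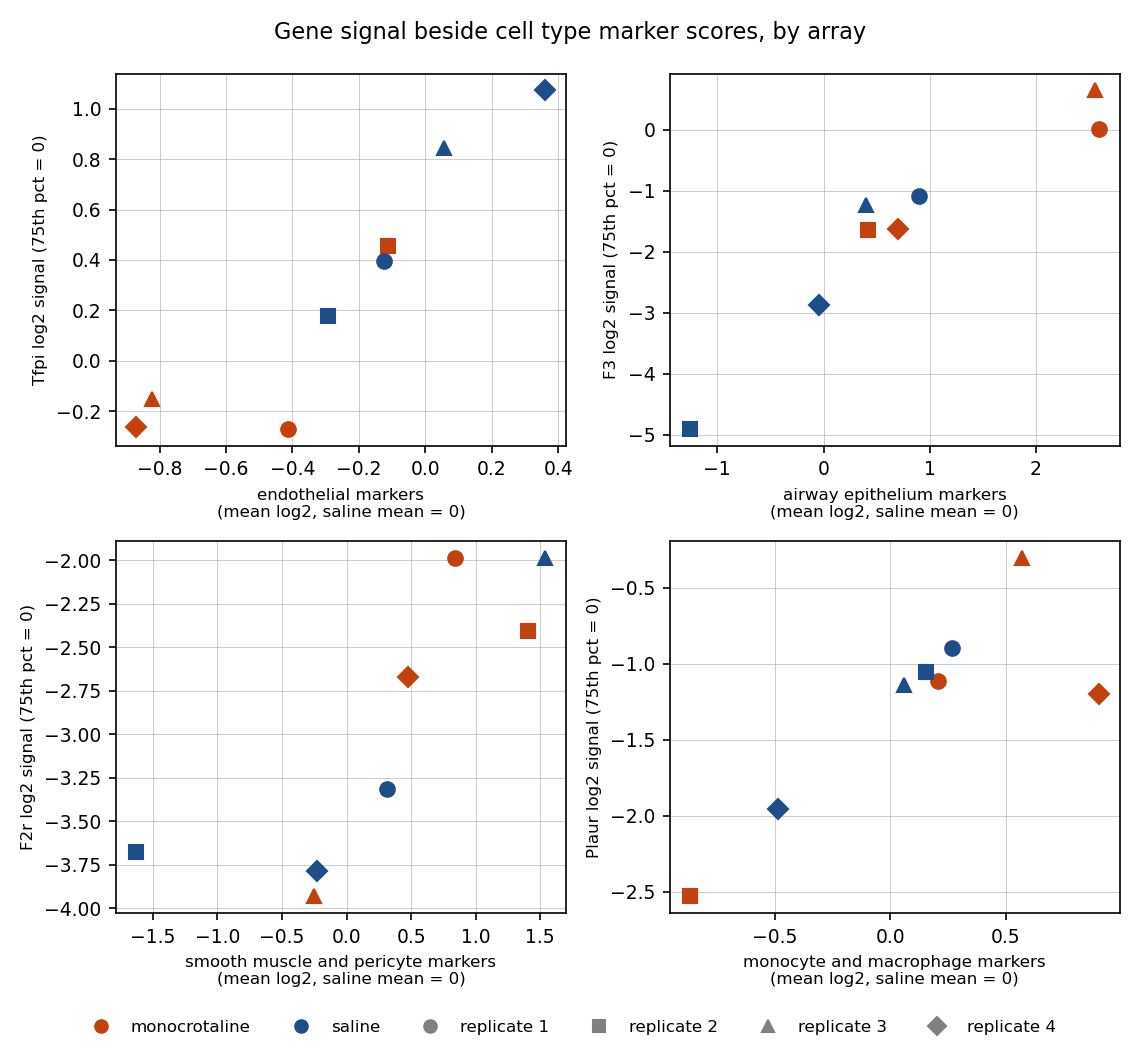
Scaled log2 signal of 4 genes against a marker score on the 8 arrays (orange, monocrotaline; blue, saline; symbol, replicate number): Tfpi with endothelial markers, F3 with airway epithelium markers, F2r with smooth muscle and pericyte markers, Plaur with monocyte and macrophage markers. The pairs of gene and score were chosen after seeing the data. F3 was highest, at 0.65, on monocrotaline array 3, with an airway score of 2.56, and lowest, at -4.90, on saline array 2, with an airway score of -1.25.

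F2r, the thrombin receptor, had signals of -1.98, -2.41, -3.93 and -2.67 on monocrotaline arrays 1 to 4, against -3.31, -3.68, -1.99 and -3.79 on saline arrays 1 to 4. In each group 1 array stood with the other group, monocrotaline array 3 low and saline array 3 high. For F2r the log2 fold change was 0.44 ± 0.51 (SE, n = 4 per group, limma adjusted p = 0.743), with a 95% interval of -0.72 to 1.61. It was 0.19 without monocrotaline replicate 1, 0.84 without monocrotaline replicate 3, 0.85 without saline replicate 3, 0.28 without saline replicate 2 and 0.25 without saline replicate 4. Smooth muscle and pericyte markers (6 of 6 tested) scored 0.84, 1.40, -0.25 and 0.47 on monocrotaline arrays 1 to 4, against 0.31, -1.63, 1.54 and -0.23 on saline arrays 1 to 4, and were lowest among the monocrotaline arrays on array 3 and highest among the saline arrays on array 3. Their part in the F2r values was not tested. A second F2r probe was not well above background on any of the 8 arrays and gives no measure of the gene.

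The plasminogen activators differed by less than their spread. Plat had signals of 3.99, 4.01, 3.35 and 3.93 on monocrotaline arrays 1 to 4, against 3.93, 3.55, 3.44 and 4.30 on saline arrays 1 to 4. The groups covered nearly the same range. The log2 fold change was 0.01 ± 0.23 (SE, n = 4 per group, limma adjusted p = 0.989), and the 95% interval of -0.52 to 0.55 leaves room for a change of about 0.5 log2 units either way.

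Plau had signals of -2.40, -3.21, -2.96 and -3.03 on monocrotaline arrays 1 to 4, against -2.39, -3.03, -2.13 and -2.78 on saline arrays 1 to 4. Its log2 fold change was -0.32 ± 0.24 (SE, n = 4 per group, limma adjusted p = 0.599), with a 95% interval of -0.88 to 0.24. Without saline replicate 3 it was -0.17, and without monocrotaline replicate 1 it was -0.49. In each group array 2 was the lowest.

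Plaur, the urokinase receptor of monocytes, neutrophils and activated endothelium, had signals of -1.11, -2.53, -0.30 and -1.20 on monocrotaline arrays 1 to 4, against -0.90, -1.05, -1.14 and -1.96 on saline arrays 1 to 4. The monocrotaline arrays held the highest and the lowest of the 8 values. The log2 fold change was -0.02 ± 0.45 with a 95% interval of -1.05 to 1.00, and the second probe gave -0.18 ± 0.40 with the same highest and lowest arrays. Monocyte and macrophage markers (9 of 10 tested, Marco below the filter) scored 0.21, -0.87, 0.57 and 0.90 on monocrotaline arrays 1 to 4, against 0.27, 0.16, 0.06 and -0.48 on saline arrays 1 to 4. Neutrophil markers (6 of 7 tested, Mmp8 below the filter) scored 1.96 on monocrotaline array 3, where Plaur was highest, and -0.08 to 0.47 on the other monocrotaline arrays, against -0.43 to 0.81 on saline arrays. Plaur was lowest on the array of each group with the lowest monocyte score, while monocrotaline array 4, with the highest such score, was not high in Plaur. The part of leukocytes in the Plaur values was not tested.

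RefSeq promoters (build GRCr8) were at hand for 5 of the 9 genes: Procr, Tfpi, F2r, Plau and Plaur. In the 250 bases before the start of each gene, searched on both strands, the AP-1 motif TGANTCA was found in 3 of 5, and in 6.34% of 33469 promoters of the same length. AP-1 factors are known to act on the PLAUR promoter in human cells. The matches are shown in capitals with 25 bases on each side, 5′ to 3′ on the strand of the gene. These receptor genes share the pattern TGANTCA, whose middle letter was C in Procr and Plaur and G in F2r.
Procr, chr3:164714485-164714541, plus strand: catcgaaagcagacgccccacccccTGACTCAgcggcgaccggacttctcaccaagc
F2r, chr2:28620742-28620798, minus strand: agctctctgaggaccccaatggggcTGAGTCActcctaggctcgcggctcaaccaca
Plaur, chr1:89181255-89181311, plus strand: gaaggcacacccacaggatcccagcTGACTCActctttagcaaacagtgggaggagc
The match begins 217, 194 and 83 bases before the start in Procr, F2r and Plaur. The 3 genes with a match did not share a direction, with log2 fold changes of -0.09, 0.44 and -0.02, and none passed the test. Of the other motifs searched, GGGCGG was found in 2 of 5 (30.5% of all promoters), CCACCC in 1 (26.1%), the NF-kB motif, whose loose form can overlap GGGCGG, in 3 (42.3%), and TATAAA and GGAAGT in 0 (12.9% and 19.2%). A match is a run of letters and no measure of binding.

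For Tfpi and F8, the genes of the 9 with the lowest p, the named genes most like them over the 8 arrays were taken by Pearson's r of scaled log2 signal. For Tfpi these were Gpr158 (r = 0.994), Lingo1 (r = 0.993) and Armcx1 (r = 0.991). For F8 they were Tmem252 (r = 0.988), Tmcc3 (r = 0.975) and Kidins220 (r = 0.973). These values describe 8 arrays and were picked as the highest among all genes with a symbol, so no test is attached. All 6 had negative log2 fold changes, from -1.42 for Gpr158 to -0.21 for Kidins220, and none passed limma's test, with adjusted p from 0.232 to 0.479. Because r was taken over both groups together, genes picked for following Tfpi or F8 this closely share their direction by selection.

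The rest of the pathway was read through 43 further genes in 4 lists. Of these 38 had a matched probe and 24 were bright enough to test, the untested ones being mostly liver-made plasma proteins (F2, F7, F9, Fga, Fgb, Klkb1, Kng1, Proc, Serpinc1, Serpind1, Serpina10, Cpb2 and Hrg) besides Serpinb2. F5, F11, F13b, Vwf and Adamts13 had no matched probe. Limma called 0 of the 24 higher and 0 lower at an adjusted p under 0.05. At an unadjusted p under 0.05 there were 3 higher, which is 12.5%, and 0 lower, beside 6.72% and 7.23% of all genes. The median log2 fold change was 0.07, beside -0.03 for all genes tested, and the arrays of the groups did not overlap in 2 of 24 genes, which is 8.33%, beside 8.55% of all genes.

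**Figure D4:**
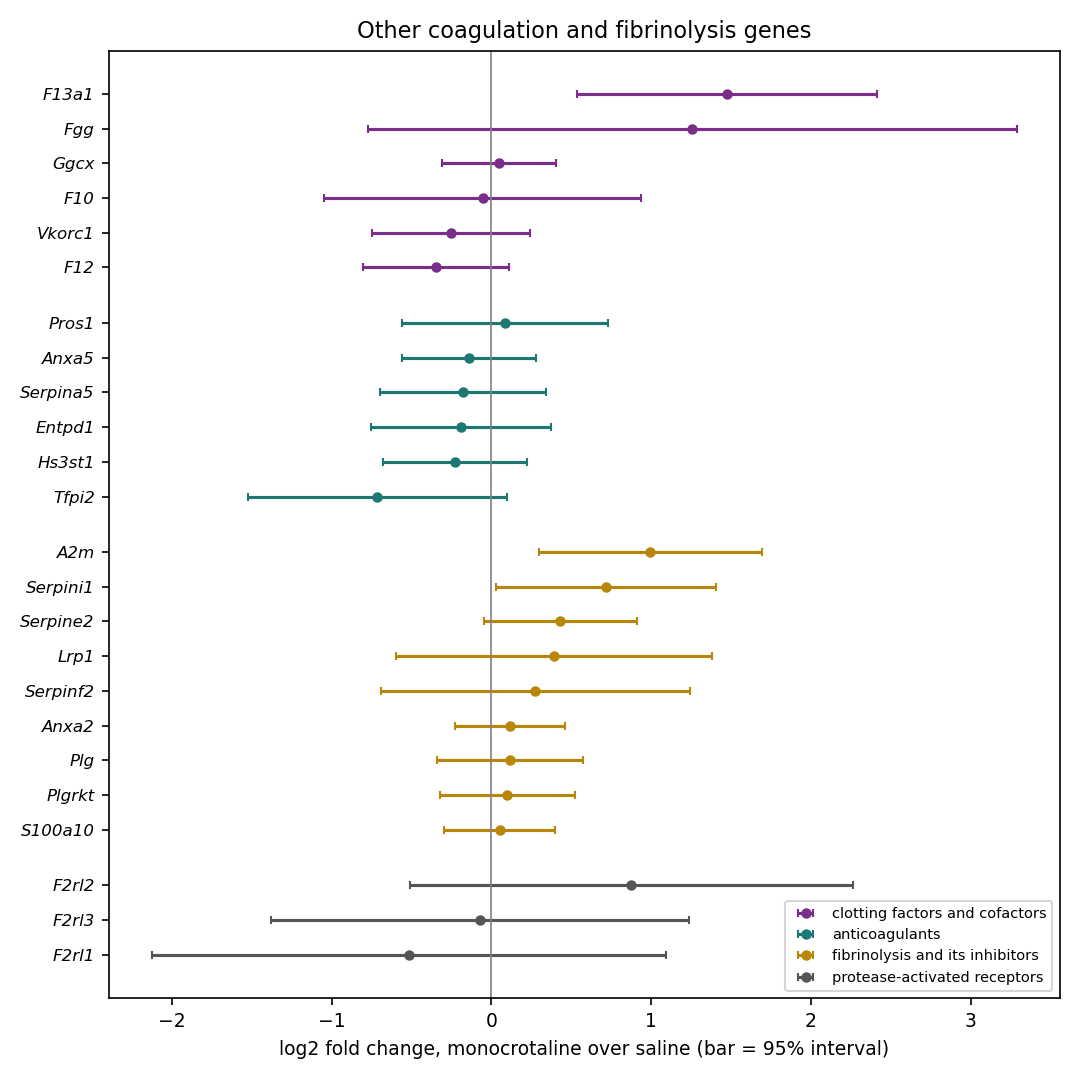
Log2 fold change of the 24 other coagulation and fibrinolysis genes, monocrotaline over saline, with 95% intervals, grouped by list and ordered by value. The 9 fibrinolysis genes shown all lie above 0, as did 8825 of 19137 genes tested. F13a1, A2m and Serpini1 are the genes whose interval does not reach 0.

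In the fibrinolysis list, which does not hold Plat, Plau and Plaur, all tested genes had the same sign. All 9 had a positive log2 fold change, from 0.05 to 0.99 with a median of 0.28, where 8825 of 19137 genes tested had one. In this list 0 passed the test. At an unadjusted p under 0.05 there were 2, A2m and Serpini1, which is 22.2%, beside 6.72% of all genes with a higher value. Several values were small beside their SE, such as 0.05 ± 0.15 for S100a10 and 0.40 ± 0.43 for Lrp1. The list holds both parts of fibrinolysis and its inhibitors, and the sign shared within it was not tested. Plat, Plau and Plaur, given above, had log2 fold changes of 0.01, -0.32 and -0.02 and did not share that sign.

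A2m, a protease inhibitor that traps plasmin among others, was well above background on 4 of 4 monocrotaline arrays and on 0 of 4 saline arrays. It passed the filter on low signal only through the monocrotaline arrays, which favoured a higher value there. Its place in the counts above, of sign, of low p and of groups not overlapping, is therefore no support for them. Its measured mean was -5.64 in monocrotaline samples and -6.64 in saline samples, and it was at least 1.86-fold higher in the monocrotaline samples (limma adjusted p = 0.203), a bound on the difference of means that leaves out the spread and holds for the 75th percentile scaling of processed signals. The measured log2 fold change of 0.99 became 0.14 when normexp was used with the 75th percentile scaling, 0.34 when it was used with quantile normalization, and 0.45 without monocrotaline replicates 1 and 3. Serpini1, neuroserpin, an inhibitor of Plat that is known mainly from neurons, had signals of -2.03, -1.89, -0.998 and -1.16 on monocrotaline arrays 1 to 4, against -2.08, -1.70, -2.50 and -2.67 on saline arrays 1 to 4. Saline array 2 lay above monocrotaline arrays 1 and 2, so the groups overlapped. Its log2 fold change was 0.72 ± 0.30 (SE, n = 4 per group, limma adjusted p = 0.34), and it is the last of the 3 genes at an unadjusted p under 0.05. Fibroblast markers (median log2 fold change 1.11) and smooth muscle and pericyte markers (median 0.57) had 0 calls each, and their part in the fibrinolysis values was not tested.

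Among clotting factors the 6 tested genes had 3 positive and 3 negative values and 0 calls. F13a1, the A subunit of the fibrin-crosslinking factor XIII, which platelets and macrophages carry, had signals of -2.69, -4.06, -3.95 and -2.88 on monocrotaline arrays 1 to 4, against -4.53, -5.07, -4.23 and -5.64 on saline arrays 1 to 4. The groups did not overlap, though monocrotaline array 2 and saline array 3 lay close together. The log2 fold change was 1.48 ± 0.41 (SE, n = 4 per group, limma adjusted p = 0.16). Platelet markers (5 of 8 tested; Itga2b and Gp6 had no matched probe and Gp1ba was below the filter) scored 1.74 on monocrotaline array 1, where F13a1 was highest, -0.67 to 0.09 on the other monocrotaline arrays, and -0.47 to 0.47 on the saline arrays. The monocyte and macrophage score given above was highest on monocrotaline array 4 (0.90), where F13a1 was -2.88, and was lowest in each group on the array with the lowest F13a1, at -0.87 on monocrotaline array 2 and -0.48 on saline array 4. The part of platelets and macrophages in the F13a1 values was not tested. F12, which starts the contact pathway, had -0.34 ± 0.20 (limma adjusted p = 0.474).

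Of the 6 other anticoagulant genes tested 1 had a positive and 5 had a negative log2 fold change, with a median of -0.18 and 0 calls. Tfpi2, a matrix-bound relative of Tfpi, had -0.72 ± 0.35 (SE, n = 4 per group, limma adjusted p = 0.408), and Hs3st1, which makes the heparan sulfate that binds antithrombin, had -0.23 ± 0.20 (limma adjusted p = 0.655). The remaining protease-activated receptors gave wide errors, with 0.88 ± 0.61 for F2rl2, above background on 3 of 4 saline arrays, and -0.51 ± 0.70 for F2rl1. F2rl3, above background on 3 of 4 monocrotaline and 2 of 4 saline arrays, had -0.07 ± 0.57. F2rl2 was at 0.48 without saline replicate 2, at 0.52 without monocrotaline replicate 1 and at 0.16 with normexp and 75th percentile scaling.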

How the data were processed

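Total RNA of each rat (10 ng) was amplified, marked with Cy3 and read on a 1-colour array, per the labels. Per the file headers, the signal columns are an intensity read with Agilent Feature Extraction 10.7.3.1, with the background already subtracted and a spatial detrending done, and with no scaling between arrays. The submitters' processing notes name limma 3.6.9. In the deposited value table log2 had been applied to log2 signals after quantile normalization, as a comparison with the scanner files showed (median absolute difference of 9.89e-10), and the table was used for 1 alternative. The flag columns mark single spots with 0 or 1, per the file headers.

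The mean processed signal over a probe's spots was taken without 4259 control spots and without spots flagged as outliers, and log2 values were scaled to the 75th percentile of each array. Of 30367 probes 17 were lost to flags and 21652 were kept as well above background on at least 4 of 8 arrays. Accessions were matched to RefSeq symbols, and the brightest probe stood for a gene. R 4.3.3 with limma 3.58.1 (lmFit and eBayes, two-sided) compared monocrotaline with saline, with Benjamini-Hochberg adjustment over 19137 genes and, for single probes, over all probes. The fit was tested on simulated data. A bound for a dim gene sets each dim array no lower than its lowest signal well above background.

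The genes and lists were chosen with earlier results of these data known, and 1 gene of the wider pathway lists is not reported here and is left out of their counts. Named were all 9 genes, the called genes of each list (or the 2 with the lowest p) and the 3 brightest endothelial markers. A few other genes of the lists are named beside these. Each rat is a separate animal per the series' design. The alternatives were other background corrections, scalings, filters, probe summaries and variance models, a replicate block, and leaving out arrays.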

Additional observations from a re-analysis of the deposited data

Results flagged for a closer look

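On 2 of the 18 sets of 4 arrays (9 genes in 2 groups), 1 array stood apart by Dixon's ratio, which chance takes past its critical value in about 5% of sets. Tfpi on monocrotaline array 2 had a scaled log2 signal of 0.46, where the next monocrotaline array had -0.15 (ratio 0.838). Without that array the log2 fold change of Tfpi was -0.85 (limma adjusted p = 0.13, and 0.13 to 0.658 over all alternatives). Plat on monocrotaline array 3 had 3.35, where the next had 3.93 (ratio 0.875). Without that array its log2 fold change was 0.17 (limma adjusted p = 0.784, and 0.192 to 0.992 over all alternatives).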

How the results depend on the processing

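The count of 0 called among the 9 genes held under all 21 alternatives run, and so did the 0 called among their probes under the 11 run for probes. Their smallest adjusted p over all alternatives was 0.13 (Tfpi without monocrotaline replicate 2). Over the other 24 genes the count was 0 under all 21 alternatives. Endothelial marker scaling turned the sign of Thbd (0.17), Procr (0.47), F8 (0.023), Plau (0.23), Plaur (0.53), F12 (0.21), Hs3st1 (0.33), F2rl1 (0.04), Kdr (0.40) and Pecam1 (0.25), and it moves every gene up by construction. Plat was at -0.028 with median scaling and at -0.012 with array weights. With 1 array left out, the values ranged from -0.35 to 0.08 for Procr, -0.11 to 0.18 for Plat, -0.35 to 0.39 for Plaur, -1.18 to 0.006 for F2rl1, -0.30 to 0.056 for Kdr, -0.85 to -0.53 for Tfpi, -0.70 to -0.38 for F8, -0.47 to -0.29 for Thbd, 1.08 to 2.35 for F3, 0.19 to 0.85 for F2r, -0.49 to -0.17 for Plau and 0.48 to 1.29 for F2rl2. Normexp with 75th percentile scaling, which lifts dim signals, gave 1.37 for F3, 0.71 for F13a1, 0.25 for F2r, 0.16 for F2rl2 and 0.14 for A2m. Without the 2 arrays of highest airway score F3 was at 0.89, A2m at 0.45, F2rl2 at 0.37 and Plau at -0.54. The calls over all genes, 274, became 426 with array weights, 459 with endothelial marker scaling, 52 without the 2 arrays of highest airway score, and 11 to 366 with 1 array left out. The cause was not tested. Samples with the same replicate number share only a number and a slide column: the correlation of their deviations across genes was -0.015, -0.232, -0.326 and -0.197, and no monocrotaline array correlated best with the saline array of its own number. With a replicate block 0 genes were called in all, 0 among the 9, and F3 was 1.88 ± 0.39 (limma adjusted p = 0.186). Signal over background limits A2m, which was not well above background in saline samples. It also limits F2rl2 and the clotting factor gene Fgg, well above background on 3 of 4 saline arrays. F2rl3 was well above background on 3 of 4 monocrotaline and 2 of 4 saline arrays.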

Other observations

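Anxa2, S100a10 and Ggcx had the smallest errors of the 24 other genes, below the all-gene median SE of 0.195. They are named after their values were seen. Anxa5 (-0.14 ± 0.18) and Plgrkt (0.10 ± 0.19) also had errors below that median. Anxa2 and S100a10, which together form a cell-surface docking site for Plat and plasminogen, had log2 fold changes of 0.12 ± 0.15 and 0.05 ± 0.15 (SE, n = 4 per group, limma adjusted p = 0.776 and 0.907). Their 95% intervals were -0.22 to 0.46 and -0.29 to 0.40. Ggcx, the carboxylase that vitamin K-dependent clotting proteins need, had 0.05 ± 0.16 with a 95% interval of -0.31 to 0.40. A p that misses the threshold does not show that these genes were alike in the groups.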
